A study of Homo sapiens with 30 samples.

Results

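The 10 genes described here are 7 genes of the HOXA cluster (HOXA3, HOXA5, HOXA6, HOXA7, HOXA9, HOXA10 and HOXA11) and 3 transcription factor genes linked with them in leukemia, MEIS1, PBX3 and MEF2C. They were chosen by name, as 10 of the 60675 genes listed in the over-expression table and of the 58051 listed in the knockout table, and no measured value is part of the rule that defines them. Total RNA was sequenced from human cell lines of acute myeloid leukemia (AML), with 3 libraries in each of 10 groups and 30 libraries altogether. In the over-expression series (12 libraries), MV4-11 and Molm-14 cells carried a pLenti vector with an EF1α promoter, GFP and a stretch from the MIR1-2 host gene (OE), or the GFP vector alone (EV). In the knockout series (18 libraries), lentiCRISPRv2 was used in MV4-11, Molm-14 and THP-1 cells, either with a GFP marker and 1 guide against MPC1 (KO), a subunit of the mitochondrial pyruvate carrier, or empty (EV). Every group thus carried a lentiviral vector, and no group without one was analysed here. MV4-11 and Molm-14 have the internal tandem duplication in FLT3 (FLT3-ITD), and THP-1 does not. The labels do not say whether replicates were separate cultures or infections, so the p-values below measure the spread between these libraries, which may be technical.

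The HOXA genes lie side by side on chromosome 7 and encode homeodomain transcription factors that are active in blood stem and progenitor cells and are normally switched off as the cells mature. HOXA proteins bind DNA together with the cofactors MEIS1 and PBX3, which belong to the TALE class of homeodomain proteins, and HOXA9 with MEIS1 is a well known driver of myeloid leukemia in mice. All 3 lines carry a rearrangement of KMT2A (MLL), with AFF1 as the partner gene in MV4-11 and MLLT3 in Molm-14 and THP-1; KMT2A fusion proteins bind the HOXA cluster, MEIS1 and MEF2C and keep them expressed.

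The over-expression vector codes for miR-1, so the members were searched for the miR-1 seed, the bases 2 to 8 of the microRNA that pair with target transcripts. The search covered the 3′ UTR of the 1 transcript marked canonical in the annotation for each gene, and other transcripts were not searched. The mature sequence (RefSeq, GRCh38) and the only match found in these 3′ UTRs of the 10 genes are shown. The seed and the bases that pair with it are in capitals.
hsa-miR-1-3p: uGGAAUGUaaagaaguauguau
MEIS1 3′ UTR: atgcatacgtACATTCCtggacaccct
The match is a 7mer-m8 site (ACATTCC) at base 173 of the 2661-base 3′ UTR of MEIS1. The canonical 3′ UTRs of the other 9 genes held no 8mer, 7mer-m8 or 7mer-A1 match. Of the 12567 tested genes with a canonical 3′ UTR, 21.9% held at least 1 match of any of the 3 kinds. A match is a description of the letters and not evidence that miR-1 binds there.

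The upstream sequences of HOXA7 and HOXA9, neighbours in the cluster, are shown because HOXA9 was expressed in all 3 lines whereas HOXA7 was at or near 0 in MV4-11. Each run is the 250 bases before the start of the gene on the minus strand (RefSeq, GRCh38.p14), at chr7:27156676-27156925 for HOXA7 and chr7:27165538-27165787 for HOXA9, with CpG dinucleotides in capitals. The RefSeq starts used here lie inside the gene spans of GENCODE, which include longer transcripts, so both runs are upstream of these starts and not of the whole gene.
HOXA7: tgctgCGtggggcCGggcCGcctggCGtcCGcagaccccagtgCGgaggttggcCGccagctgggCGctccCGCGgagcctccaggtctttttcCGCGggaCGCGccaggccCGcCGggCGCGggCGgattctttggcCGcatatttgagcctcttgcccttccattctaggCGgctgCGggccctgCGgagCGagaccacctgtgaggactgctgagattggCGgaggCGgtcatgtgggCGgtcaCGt
HOXA9: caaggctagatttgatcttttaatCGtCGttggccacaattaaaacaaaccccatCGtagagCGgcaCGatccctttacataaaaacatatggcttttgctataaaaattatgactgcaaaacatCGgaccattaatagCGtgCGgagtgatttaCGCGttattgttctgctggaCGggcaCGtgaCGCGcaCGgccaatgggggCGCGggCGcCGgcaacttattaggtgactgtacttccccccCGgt
The HOXA7 run holds 28 CpG dinucleotides and the HOXA9 run 20. Their full windows of 300 bases hold 31 and 22, both above the median of 14 over all promoters. A link between CpG number and expression was not tested. Of the 10 genes, 9 had an entry in the promoter table. In the full window of 300 bases around the start, the MEIS motif TGACAG was found on either strand in PBX3 (1 match) and in none of the other 8, and it was present in 15.8% of 35097 promoters. The HOX-PBX motif TGATNNAT was found in none of the 9 and in 7.4% of all promoters. No match says only that these letters are not in the window.

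By GENCODE v44 on GRCh38, the HOXA members lie on the minus strand of chromosome 7, from the 3′ end of HOXA3 at 27106184 to the 5′ end of HOXA11 at 27185232. HOXA9 spans 27162438 to 27175180 and overlaps HOXA10, at 27170605 to 27180261. MEIS1 lies on chromosome 2 (66433452 to 66573869, plus strand), PBX3 on chromosome 9 (125747345 to 125967377, plus strand) and MEF2C on chromosome 5 (88717117 to 88904257, minus strand). Antisense transcripts share exon bases with several members. HOXA-AS3 overlaps 62.51% of the exon length of HOXA7 and 39.3% of that of HOXA6, HOXA11-AS overlaps 27.2% of HOXA11, and HOXA10-AS overlaps 16.4% of HOXA10 and 13.91% of HOXA9. Another protein-coding entry on the same strand shares 13.09% of the exon length of HOXA9 and 9.93% of that of HOXA10, which strand cannot separate. Whether strand was used in counting is not given in the sources used here. Reads in shared bases may have been gained from the partner or left out, so the levels of these genes are uncertain in either direction.

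The over-expression libraries held 15543301 to 20939985 counts and the knockout libraries 5339360 to 9106478, so a gene at a low level was measured more precisely in the former. Of 10 myeloid markers, 9 were above 1 CPM in every library of MV4-11 and Molm-14 and all 10 in THP-1, while CD14 was under 1 CPM in MV4-11 and Molm-14. Of 12 markers of T, B, erythroid, fibroblast and epithelial cells, no more than 1 was above that level throughout any line. MPC1, the gene targeted in the knockout series, was lower in KO than in EV libraries of every line, at 23.5 to 26.0 against 53.7 to 58.3 CPM in MV4-11 cells, 33.2 to 41.0 against 72.9 to 80.0 in Molm-14 cells and 50.3 to 58.9 against 90.6 to 100 in THP-1 cells. A pair of MV4-11 libraries in the over-expression series stood apart. The mean log2 CPM of 33 interferon-stimulated genes was 5.24 in OE replicate 1 and 3.65 in EV replicate 3, against 1.82 to 2.15 in the other 4 MV4-11 libraries, and values without both are given below.

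**Figure D1:**
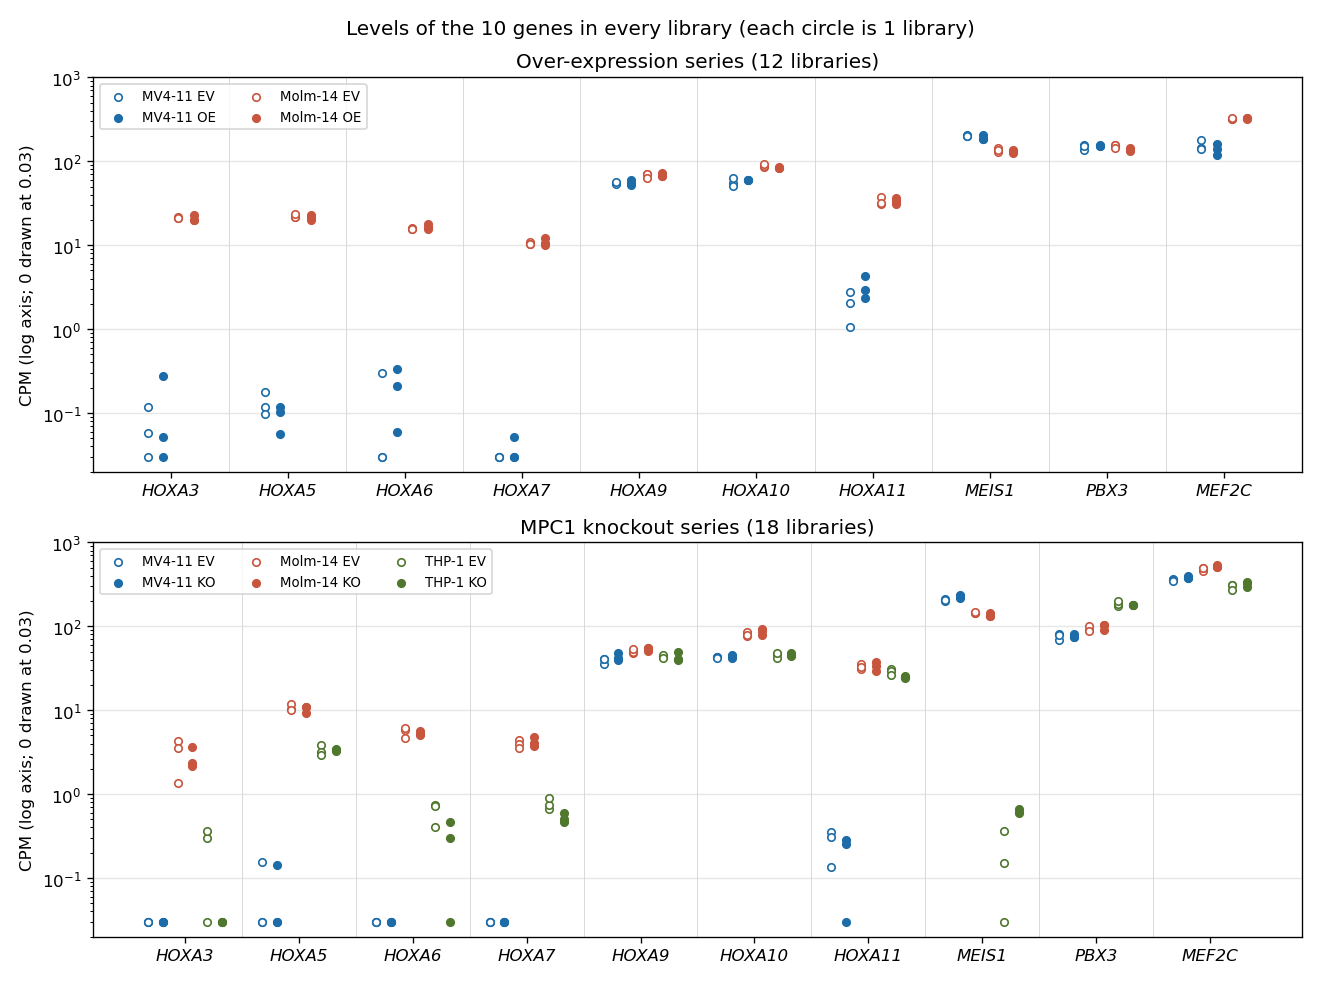
Levels of the 10 genes in CPM on a log axis, with 1 circle per library (open, EV; filled, OE or KO) and libraries with no count drawn at 0.03; the upper panel is the over-expression series and the lower panel the knockout series. HOXA9 and HOXA10 lie between 35.8 and 93.7 CPM in all libraries, HOXA3 to HOXA7 are at or near 0 in MV4-11, MEIS1 is near 0 in THP-1, and open and filled circles of a line lie close together.

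HOXA9, the best studied leukemia gene of the cluster, was expressed at similar levels in all lines. Levels are given as CPM, counts scaled by TMM to a common total of the tested genes. In the EV libraries of the knockout series HOXA9 stood at 35.8, 41.2 and 41.2 CPM in MV4-11, at 47.6, 48.7 and 53.0 in Molm-14 and at 43.6, 46.0 and 41.5 in THP-1. Each library of Molm-14 was above all of the other lines, and those of THP-1 lay just above those of MV4-11 without overlap. Molm-14 exceeded MV4-11 by 0.34 on the log2 scale (SE 0.103, edgeR FDR 0.00541), whereas THP-1 did not differ from MV4-11 at the 5% threshold (log2 fold change 0.16, 95% interval −0.06 to 0.37, edgeR FDR 0.193) nor from Molm-14 (−0.19, −0.40 to 0.03, edgeR FDR 0.109). In the over-expression series the EV libraries held 55.8, 53.8 and 56.5 CPM in MV4-11 and 70.9, 70.2 and 62.6 in Molm-14, without overlap, and the log2 fold change was 0.29 (SE 0.0664, edgeR FDR 0.000649).

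HOXA10, the neighbour of HOXA9 with a related role in progenitors, was highest in Molm-14. It stood at 43.6, 43.4 and 42.4 CPM in MV4-11 EV, 85.1, 76.5 and 78.3 in Molm-14 EV and 47.2, 41.3 and 47.8 in THP-1 EV of the knockout series. The libraries of MV4-11 and THP-1 overlapped and those of Molm-14 stood above both. The log2 fold change was 0.89 for Molm-14 against MV4-11 (SE 0.088, edgeR FDR 1.26e-09), −0.81 for THP-1 against Molm-14 (SE 0.0885, edgeR FDR 5.42e-09) and 0.07 for THP-1 against MV4-11 (95% interval −0.11 to 0.26, edgeR FDR 0.486). Molm-14 was again higher in the over-expression series, at 85.8, 88.6 and 91.7 against 55.4, 51.1 and 62.7 CPM (log2 fold change 0.65, SE 0.0635, edgeR FDR 1.89e-08).

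HOXA3, HOXA5, HOXA6 and HOXA7, the 4 members on the 3′ side of HOXA9, separated the lines. In MV4-11 EV of the over-expression series they gave 3, 7, 5 and 0 counts summed over 3 libraries, and in the knockout series 0, 1, 0 and 0 counts. In Molm-14 EV they were expressed, at 21.3 ± 0.237, 22.4 ± 1.18, 15.8 ± 0.281 and 10.5 ± 0.345 CPM (SD, n = 3) in the over-expression series. In the knockout series their Molm-14 EV levels were 3.06 ± 1.53, 10.7 ± 0.878, 5.50 ± 0.709 and 3.96 ± 0.406 CPM. In THP-1 EV the mean levels were between those of the other lines, with HOXA5 at 3.86, 3.14 and 2.90 CPM, HOXA6 at 0.399, 0.748 and 0.725, HOXA7 at 0.665, 0.748 and 0.906 and HOXA3 at 0, 0.299 and 0.362. HOXA3 overlapped MV4-11 EV, with 1 THP-1 library at 0. It gave 4 counts in THP-1 EV and 0 in MV4-11 EV, so no test is given between these lines.

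For these genes the folds against MV4-11 rest on few or no counts. Where a group held 0 counts, the fold was taken against 3 counts over the group, the limit that a count of 0 allows. HOXA7 was at least 192-fold higher in Molm-14 than in MV4-11 EV in the over-expression series and at least 29.5-fold higher in the knockout series. HOXA3 was at least 24.5-fold and HOXA6 at least 41.9-fold higher in the knockout series. HOXA3 in the over-expression series gave a ratio of 391 (95% counting interval 134 to 1890) on 3 counts in MV4-11, and HOXA5 in the knockout series a ratio of 243 (43.7 to 9610) on 1 count. These limits and intervals cover counting error only. THP-1 EV held fewer counts than Molm-14 EV in all 4 genes, 4 against 73 for HOXA3, 12 against 125 for HOXA6 and 15 against 88 for HOXA7. These 3 passed the filter on low counts through Molm-14, so no test is given for them. HOXA5, which was high enough in both lines, was lower in THP-1 by −1.68 on the log2 scale (SE 0.203, edgeR FDR 3.68e-08).

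HOXA11 lies on the other side of HOXA10. It stood at 35.5, 30.7 and 33.0 CPM in Molm-14 EV, 30.6, 29.2 and 26.1 in THP-1 EV and 0.348, 0.135 and 0.308 in MV4-11 EV of the knockout series. The gap to MV4-11 was far larger than the spread, and every Molm-14 library was above every THP-1 library by a narrow margin. HOXA11 gave 6 counts in MV4-11 EV, 734 in Molm-14 EV and 569 in THP-1 EV, and it passed the filter through the latter lines, so its fitted log2 fold changes against MV4-11, 6.86 and 6.66, are given with no test. The difference was −0.20 for THP-1 against Molm-14 (95% interval −0.45 to 0.05, edgeR FDR 0.153). In the over-expression series MV4-11 EV held 2.03, 1.06 and 2.77 CPM and Molm-14 EV 37.0, 31.0 and 32.0 (log2 fold change 4.12, SE 0.231, edgeR FDR 1.73e-09). HOXA13, the last gene of the cluster and not 1 of the 10, followed the same order, with 0 counts in MV4-11 EV, 110 ± 5.83 CPM in Molm-14 EV and 57.8 ± 3.9 in THP-1 EV of the knockout series.

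**Figure D2:**
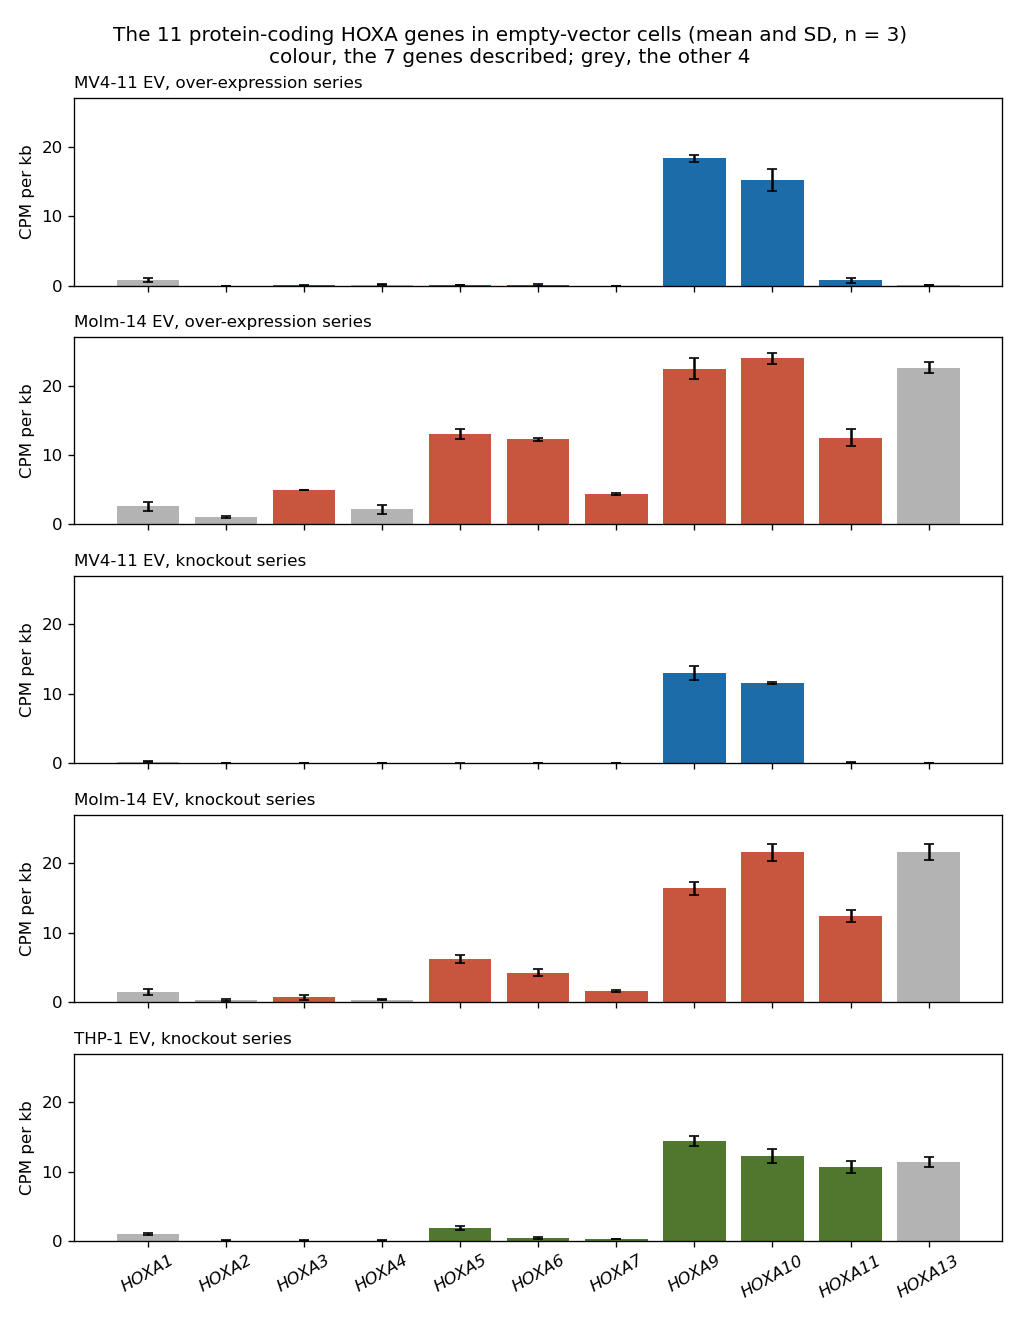
Level of the 11 protein-coding HOXA genes in gene order, as CPM per kilobase of exon, in EV cells of each line and series; bars are means of 3 libraries with the SD, coloured for the 7 genes described and grey for the other 4. In MV4-11 HOXA9 and HOXA10 are the only high bars, in THP-1 the high bars run from HOXA9 to HOXA13, and in Molm-14 HOXA5 and HOXA6 are raised as well.

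Levels of different genes were compared per kilobase of exon, taken as the union of all annotated exons of a gene. This length was 3033 bases for HOXA9, 10942 for MEIS1 and 11755 for MEF2C, and the transcripts expressed may be shorter. The order of genes depends on this choice, which the spread between libraries does not cover. In MV4-11 EV, HOXA9 and HOXA10 made up 51.7% and 42.9% of the summed level per kilobase of the 11 protein-coding HOXA genes in the over-expression series and 52.1% and 46.4% in the knockout series. In Molm-14 EV they made up 18.4% and 19.6% of the sum in the over-expression series and 18.9% and 24.8% in the knockout series. In THP-1 EV of the knockout series the shares were 27.3% and 23.3%. The ratio of HOXA9 to HOXA10 per kilobase was 1.12 ± 0.101 in MV4-11 EV, 0.763 ± 0.073 in Molm-14 EV and 1.18 ± 0.159 in THP-1 EV of the knockout series (SD, n = 3). Every Molm-14 library was below every library of the other lines in this ratio. Of all 10 genes, MEF2C had the highest level per kilobase in MV4-11 EV and Molm-14 EV of the knockout series (30.4 ± 0.817 and 41.0 ± 1.58 CPM per kilobase), and PBX3 in THP-1 EV (37.7 ± 2.59). In MV4-11 EV the order went on with MEIS1 (18.8 ± 0.327), PBX3 (15.6 ± 1.31), HOXA9 and then HOXA10 (11.6 ± 0.175), and each of these lay apart from the next over the 3 libraries. In Molm-14 EV MEIS1 (13.2 ± 0.159) and HOXA11 (12.4 ± 0.892) overlapped, and in THP-1 EV HOXA10 (12.3 ± 0.979) and HOXA11 (10.7 ± 0.860) overlapped. PBX3 was highest per kilobase in both lines of the over-expression series, at 30.6 ± 2.29 in MV4-11 EV and 30.9 ± 1.48 in Molm-14 EV.

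MEIS1, the TALE partner of HOXA9, was abundant in MV4-11 and Molm-14 and nearly undetected in THP-1. It stood at 202, 209 and 206 CPM in MV4-11 EV and at 145, 143 and 146 in Molm-14 EV of the knockout series. In THP-1 EV it gave 0, 1 and 2 counts, or 0, 0.15 and 0.362 CPM. The lines thus did not overlap, and the ratio to THP-1 was 1350 for MV4-11 (95% counting interval 462 to 6550) and 950 for Molm-14 (325 to 4610). Molm-14 was below MV4-11 in both series, by −0.51 on the log2 scale in the knockout series (SE 0.0792, edgeR FDR 3.2e-06) and by −0.57 in the over-expression series (SE 0.0558, edgeR FDR 2.46e-08), where MV4-11 EV held 198, 208 and 198 CPM and Molm-14 EV 129, 144 and 135.

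MEIS2, the closest relative of MEIS1 and also a TALE factor, had another order. It was at 12.7, 12.8 and 11.6 CPM in MV4-11 EV, 130, 138 and 123 in Molm-14 EV and 17.7, 20.6 and 19.6 in THP-1 EV. THP-1 was slightly above MV4-11 (log2 fold change 0.64, edgeR FDR 1.16e-05) and far below Molm-14 (−2.76, edgeR FDR 1.46e-19).

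PBX3, which forms complexes with HOXA9 and MEIS1, was highest in THP-1. It stood at 173, 183 and 198 CPM in THP-1 EV, 91.0, 100 and 88.4 in Molm-14 EV and 68.9, 81.0 and 78.8 in MV4-11 EV. All 3 lines were apart from each other. PBX3 had a log2 fold change of 1.28 for THP-1 against MV4-11 (SE 0.0845, edgeR FDR 2.99e-13), 0.99 for THP-1 against Molm-14 (SE 0.0835, edgeR FDR 4.26e-11) and 0.29 for Molm-14 against MV4-11 (SE 0.0853, edgeR FDR 0.00428). The last call was lost when library sizes alone were used for scaling (0.20, edgeR FDR 0.0581). In the over-expression series PBX3 overlapped between the lines, at 137, 158 and 154 CPM in MV4-11 EV and 155, 157 and 143 in Molm-14 EV, and it was not called (log2 fold change 0.02, 95% interval −0.10 to 0.14, edgeR FDR 0.807).

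MEF2C, a MADS-box factor with roles in lymphoid and megakaryocytic development, was highest in Molm-14. It stood at 365, 361 and 346 CPM in MV4-11 EV, 460, 489 and 495 in Molm-14 EV and 309, 314 and 271 in THP-1 EV of the knockout series. The 3 lines did not overlap. Its log2 fold change was 0.43 for Molm-14 against MV4-11 (SE 0.0746, edgeR FDR 1.52e-05), −0.26 for THP-1 against MV4-11 (SE 0.0752, edgeR FDR 0.0035) and −0.69 for THP-1 against Molm-14 (SE 0.0752, edgeR FDR 5.75e-09). In the over-expression series Molm-14 EV held 323, 320 and 327 CPM and MV4-11 EV 144, 139 and 179 (log2 fold change 1.07, SE 0.107, edgeR FDR 2.92e-06). The library at 179 was the EV replicate with high interferon genes, and among the MV4-11 OE libraries MEF2C was likewise highest in the one with high interferon genes (162, against 142 and 120). Without both libraries the difference between the lines was 1.19 (edgeR FDR 4.02e-20).

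**Figure D3:**
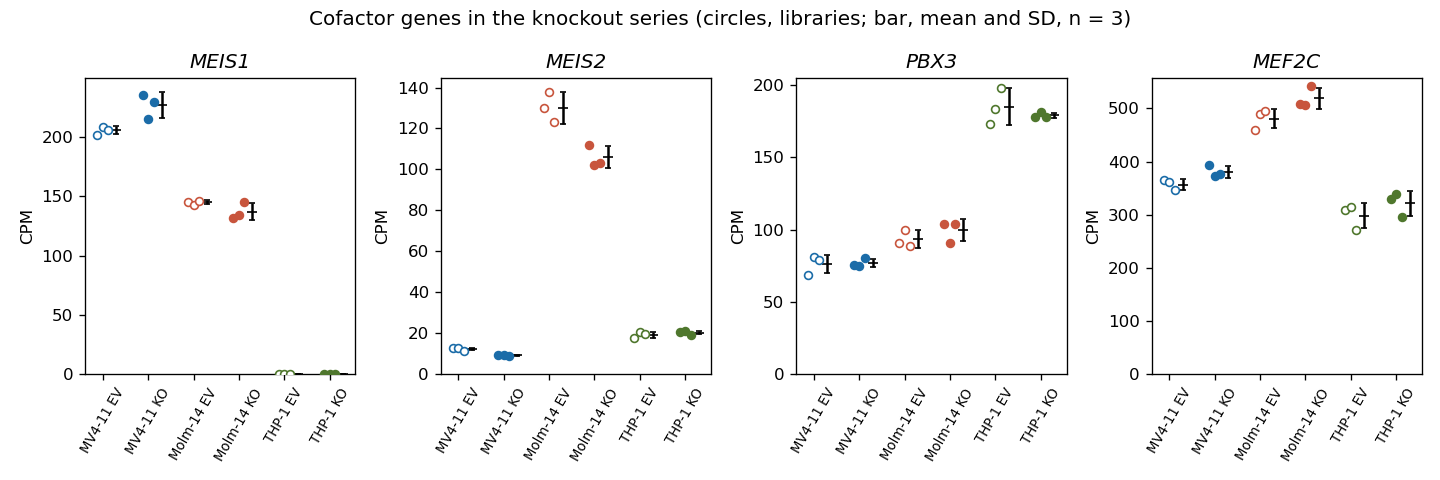
Levels of MEIS1, MEIS2, PBX3 and MEF2C in CPM in the 18 libraries of the knockout series, with 1 circle per library (open, EV; filled, KO) and a bar for the mean and SD of 3 libraries. MEIS1 is at or below 0.67 CPM in all 6 THP-1 libraries, where PBX3 is highest, and MEIS2 is highest in Molm-14.

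Between EV cells, 9 of the 10 genes were called between Molm-14 and MV4-11 in the over-expression series, where 64.8% of all tested genes were called at a false discovery rate (FDR) of 5%. In the knockout series 10 of 10 were called for the same lines (61.7% of all tested genes), 7 of 10 for THP-1 against MV4-11 (67.5%) and 8 of 10 for THP-1 against Molm-14 (69.6%). All 10 passed the filter on low counts in both series. HOXA3, HOXA6 and HOXA7 did so only through Molm-14, as did HOXA5 in the over-expression series, and in the knockout series HOXA5 and HOXA11 were high only in Molm-14 and THP-1 and MEIS1 only in MV4-11 and Molm-14, so these counts are a description. The lines differ in origin as well as in fusion partner and FLT3 status, and these cannot be told apart here. In bulk RNA, fewer expressing cells and less RNA per cell cannot be told apart either.

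Over-expression of the miR-1 hairpin changed none of the 10 genes past the threshold. The median log2 fold change of the 10 genes was −0.005 in Molm-14, against 0 over all tested genes. In MV4-11, HOXA3, HOXA5, HOXA6 and HOXA7 held at most 11 counts a group, so no median is given and only large changes of these genes could have been seen. The 6 members above 1 CPM in every MV4-11 library had log2 fold changes of −0.12 to 0.72. In MV4-11, 0 of 10 genes were called by edgeR and by DESeq2, where 0.177% of tested genes were called, and 1 (HOXA11) had an unadjusted p under 0.05, as had 5.9% of all tested genes. In Molm-14, 0 of 10 were called by both tools, where 0.0057% (1 gene of 17542) were called, and 1 (PBX3) had an unadjusted p under 0.05 (4.38% of all). HOXA9 stood at 55.1, 60.3 and 52.4 CPM in MV4-11 OE and 66.9, 72.4 and 66.1 in Molm-14 OE, overlapping EV in both lines. Its log2 fold change was 0.02 in MV4-11 (95% interval −0.12 to 0.16, edgeR FDR 1) and 0.01 in Molm-14 (−0.13 to 0.15, edgeR FDR 1).

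MEIS1, the gene with the seed match, stood at 205, 183 and 185 CPM in MV4-11 OE and 131, 137 and 127 in Molm-14 OE. These libraries overlapped the EV libraries of each line. For MEIS1 the log2 fold change was −0.08 in MV4-11 (95% interval −0.19 to 0.04, edgeR FDR 0.987) and −0.05 in Molm-14 (−0.17 to 0.07, edgeR FDR 1). The lower bounds correspond to 0.875 and 0.892 of the EV level. Without both MV4-11 libraries with high interferon genes, the MEIS1 value in MV4-11 was −0.14 (edgeR FDR 0.353), and none of the 10 genes was called.

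Among the members expressed in MV4-11, HOXA11 had the widest interval in the over-expression comparison. It stood at 4.24, 2.32 and 2.94 CPM in OE against 2.03, 1.06 and 2.77 in EV, with overlap, and the log2 fold change was 0.72 (95% interval 0.09 to 1.34, edgeR FDR 0.752). The highest library of each group was the one with high interferon genes, and without both libraries the value was 0.80 (edgeR FDR 0.25). With 1 library left out it ran from 0.39 (without EV replicate 2, edgeR FDR 1) to 1.06 (without EV replicate 3, edgeR FDR 0.223). With no filter beyond 1 count HOXA11 was called (0.71, edgeR FDR 0.0201). HOXA11-AS, which overlaps 27.2% of the HOXA11 exon length on the opposite strand, was at 2.63, 1.08 and 1.22 CPM in OE and 0.753, 0.434 and 1.30 in EV.

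PBX3 in Molm-14 was at 138, 144 and 131 CPM in OE and 155, 157 and 143 in EV. A single OE library lay above the lowest EV library. The log2 fold change was −0.14 (95% interval −0.26 to −0.02, edgeR FDR 1), and it was called when only the Molm-14 groups were fitted (−0.14, edgeR FDR 0.0383), a fit that called 195 genes in place of 1. In MV4-11 PBX3 was at 152, 152 and 157 CPM in OE (0.04, −0.08 to 0.16). The other expressed members had log2 fold changes between −0.12 (MEF2C) and 0.08 (HOXA10) in MV4-11 and between −0.08 (HOXA5 and HOXA10) and 0.07 (HOXA6) in Molm-14.

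**Figure D4:**
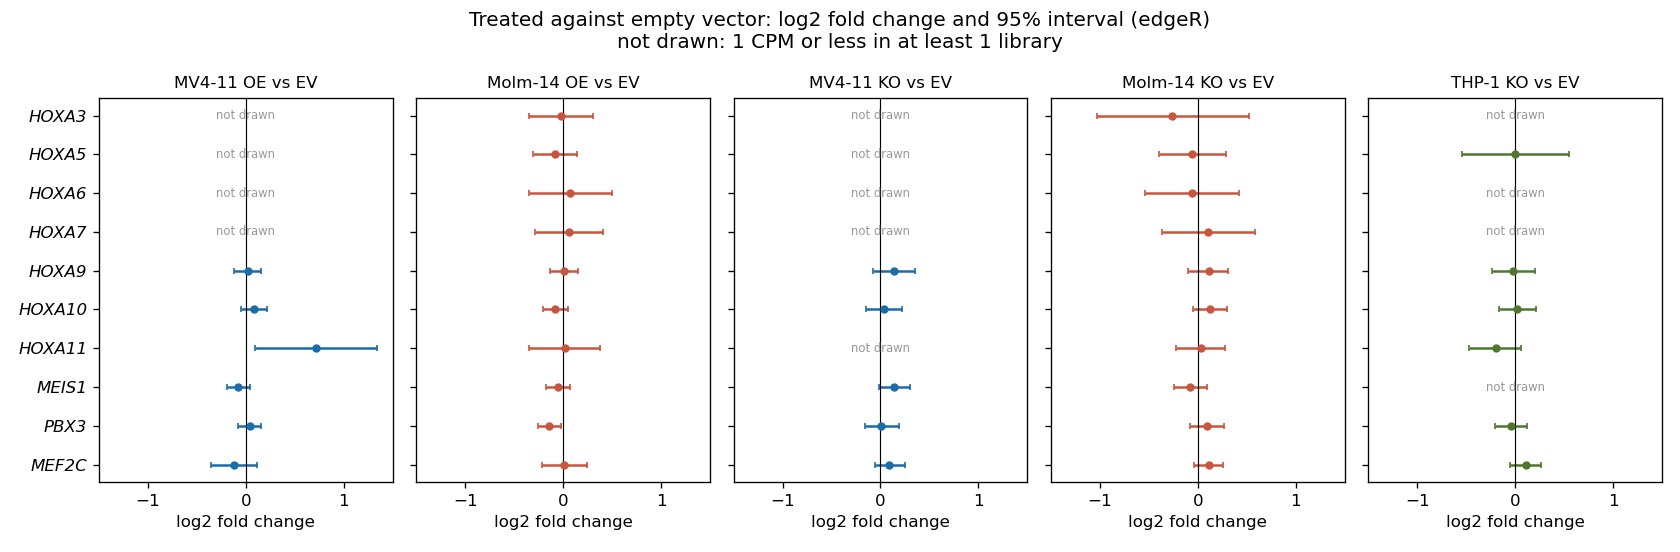
Log2 fold change of OE or KO against EV with its 95% interval (edgeR), for members above 1 CPM in every library of both groups; others are marked as not drawn. All intervals include 0 except those of HOXA11 in MV4-11 OE and PBX3 in Molm-14 OE, which were not called after adjustment over all tested genes.

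After deletion of MPC1 none of the 10 genes was called in any of the 3 lines, although some had too few counts for a change to be seen. In MV4-11, 0 of 10 were called by edgeR and by DESeq2 (5.41% of tested genes were called by edgeR), and 0 had an unadjusted p under 0.05, against 22.3% of all tested genes. There HOXA3, HOXA6 and HOXA7 had 0 counts in KO and in EV, HOXA5 had 1 in each group, and HOXA11 had 4 in KO and 6 in EV. At most a large change of these genes could have been seen, so the 0 rests on the other 5 members. In Molm-14, 0 of 10 were called by both tools (2.4% of tested genes), again with 0 at an unadjusted p under 0.05 (10.7% of all). In THP-1, 0 of 10 were called by both tools (0.0897% of tested genes). HOXA3, HOXA6, HOXA7 and MEIS1 held at most 15 counts a group there. Of the 6 members above 1 CPM in every THP-1 library, 0 had an unadjusted p under 0.05 (8.01% of all). The median log2 fold change of the 10 genes in Molm-14 was 0.063, against 0 over all tested genes. No median is given for the other lines, where several members had few or no counts. The members above 1 CPM in every library had log2 fold changes of 0.01 to 0.14 in MV4-11 (5 genes) and −0.20 to 0.11 in THP-1 (6 genes). For the 5 members above 1 CPM in every MV4-11 library (HOXA9, HOXA10, MEIS1, PBX3 and MEF2C), the 95% intervals ran from −0.16 to 0.35 on the log2 scale, or from 0.895 to 1.27 of the EV level.

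Among members above 1 CPM in every library compared, MEIS1 in MV4-11 KO had the lowest adjusted p of the treatment comparisons. It did not have the lowest unadjusted p (edgeR p 0.0794). The unadjusted edgeR p was lower for PBX3 in Molm-14 OE (0.0229) and HOXA11 in MV4-11 OE (0.0282). In MV4-11, MEIS1 was at 236, 215 and 230 CPM in KO and 202, 209 and 206 in EV. Every KO library was above every EV library, by a margin that was small beside the level. The log2 fold change was 0.14 (SE 0.0782, 95% interval −0.02 to 0.30, edgeR FDR 0.284). In Molm-14 the groups were at 132, 134 and 145 against 145, 143 and 146 CPM (log2 fold change −0.08, −0.24 to 0.09, edgeR FDR 0.82), and the difference between the lines was −0.22 (−0.45 to 0.01, edgeR FDR 0.376).

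In THP-1 MEIS1 gave 4 counts in each KO library, 12 in all, against 3 in the EV libraries. The KO libraries, at 0.617, 0.594 and 0.67 CPM, were above the EV libraries. The 95% counting interval of the ratio was 1.41 to 19.9 and the adjusted p was not past the threshold (edgeR FDR 0.536). All 6 libraries were below 1 CPM.

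HOXA9 was at 48.6, 39.8 and 41.4 CPM in MV4-11 KO, at 50.6, 55.5 and 54.7 in Molm-14 KO and at 49.2, 39.4 and 40.9 in THP-1 KO. KO and EV overlapped in all 3 lines. The log2 fold changes were 0.14 (95% interval −0.08 to 0.35), 0.11 (−0.10 to 0.31) and −0.02 (−0.24 to 0.20), with edgeR FDR of 0.462, 0.805 and 0.974. HOXA10 had log2 fold changes of 0.04, 0.12 and 0.02 in the same order (edgeR FDR 0.861, 0.7 and 0.969). MEF2C had values of 0.09, 0.11 and 0.11 (edgeR FDR 0.497, 0.695 and 0.733), with KO libraries at 394, 373 and 376 CPM for MV4-11, 508, 507 and 543 for Molm-14 and 330, 340 and 295 for THP-1. Its KO libraries lay above all EV libraries in MV4-11 and Molm-14, and overlapped them in THP-1.

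HOXA11 in THP-1 was at 24.2, 25.7 and 24.8 CPM in KO and 30.6, 29.2 and 26.1 in EV (log2 fold change −0.20, 95% interval −0.47 to 0.06, edgeR FDR 0.698). The groups did not overlap, by a margin under 1 CPM. HOXA5 to HOXA7 in Molm-14 had values between −0.06 and 0.10, and HOXA3 had the widest interval of that line (−0.26, −1.03 to 0.52), with EV libraries at 1.35, 4.28 and 3.56 CPM. In MV4-11 HOXA3, HOXA6 and HOXA7 had 0 counts in KO and in EV libraries, so no fold was formed.

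The effect of a vector was compared between lines in the same fit. For over-expression, 0 of 10 genes differed between Molm-14 and MV4-11 by edgeR and by DESeq2 (0.0456% of tested genes), with 1 at an unadjusted p under 0.05 (5.3% of all). For MPC1 deletion, 0 of 10 differed by both tools between Molm-14 and MV4-11 (1.48%), between THP-1 and MV4-11 (0.193%) and between THP-1 and Molm-14 (0.766%), with 0, 1 and 1 genes at an unadjusted p under 0.05 (14.2%, 9.05% and 7.8% of all). The last 2 were MEIS1, on the few counts of THP-1. HOXA3, HOXA6 and HOXA7 had 0 counts in MV4-11 KO and EV, so no difference from MV4-11 could be found for them. Other members with few counts in a line could show only a large difference. In the over-expression series these were HOXA3, HOXA5, HOXA6 and HOXA7, with at most 11 counts a group in MV4-11.

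Other genes of the pathway were described from lists chosen with earlier results of these data known. Of the other HOXA cluster genes, 0 of 9 tested in the over-expression series and 0 of 6 tested in the knockout series were called in any treatment comparison by edgeR or DESeq2, with 1 at an unadjusted p under 0.05 in each comparison except Molm-14 OE, where there were 0. Of the other TALE homeobox genes, 1 of 6 tested in the knockout series was called by edgeR, MEIS2, in MV4-11 (5.41% of all tested genes) and in Molm-14 (2.4%). MEIS2 was at 9.39, 9.52 and 9.05 CPM in KO and 12.7, 12.8 and 11.6 in EV of MV4-11, and the mean was 106 ± 5.46 in KO against 130 ± 7.74 in EV of Molm-14 (SD, n = 3). All KO libraries were below the EV libraries of their line. These were log2 fold changes of −0.41 (SE 0.119, edgeR FDR 0.0431) for MV4-11 and of −0.30 (SE 0.0809, edgeR FDR 0.0444) for Molm-14. These calls did not hold with DESeq2 (FDR 0.0625 and 0.0554), nor in any fit that left out 1 library (edgeR FDR 0.0716 to 0.142 and 0.0633 to 0.28). In THP-1 it was not called (0.09, edgeR FDR 0.855).

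Among 15 tested genes of the KMT2A complex and its elongation partners, 1 was called by edgeR in MV4-11 KO, lower than in EV (5.41% of all tested genes were called), and 4 had an unadjusted p under 0.05 there (22.3% of all). In this list 0 were called in the other treatment comparisons by edgeR and by DESeq2, with 0 at an unadjusted p under 0.05. The gene was MLLT1 (ENL), a reader of acetylated histones in the elongation complexes, at 37.6, 41.6 and 44.5 against 50.3, 60.7 and 65.7 CPM. Its groups did not overlap (log2 fold change −0.51, SE 0.139, edgeR FDR 0.0327). In MLLT1 the call was lost without EV replicate 2 (edgeR FDR 0.103), EV replicate 3 (0.195), KO replicate 1 (0.183) or KO replicate 2 (0.0855), and with library sizes alone (0.0517). The median log2 fold change of the list was −0.137, against 0.015 over all tested genes. Of the MEF2 family and the class IIa histone deacetylases, which bind MEF2 factors, 0 of 8 tested genes in the over-expression series and 0 of 7 in the knockout series were called in any treatment comparison by edgeR or DESeq2, with 0 or 1 at an unadjusted p under 0.05.

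Of 19 tested target genes of KMT2A fusions other than the members, edgeR called 2 higher in MV4-11 KO (5.41% of all tested genes were called), 1 higher in Molm-14 KO (2.4%) and 1 lower in MV4-11 OE (0.177%). DESeq2 called the same genes and also SOX4 in Molm-14 KO (edgeR log2 fold change 0.27, FDR 0.0752) and MYC in MV4-11 KO (edgeR −0.25, FDR 0.0573). ID2, an inhibitor of basic helix-loop-helix factors, rose in MV4-11 KO, at 61.4, 55.5 and 50.9 CPM against 41.9, 35.1 and 36.4 in EV (log2 fold change 0.56, SE 0.108, edgeR FDR 0.00334). All KO libraries were above all EV libraries, and the call held in each fit that left out 1 library (edgeR FDR up to 0.0387). SOX4, a factor of progenitor growth, was at 177, 197 and 189 against 162, 150 and 154 CPM (0.27, SE 0.0751, edgeR FDR 0.0327), and was called without EV replicate 1 but not without any of the other 5 libraries (edgeR FDR 0.0616 to 0.15), nor with no filter beyond 1 count (0.0927) or only the MV4-11 groups fitted (0.102). LMO2, a bridging factor of blood stem cells, rose in Molm-14 KO, at 101 ± 2.87 CPM against 78.6 ± 1.76 in EV (SD, n = 3; log2 fold change 0.36, SE 0.0809, edgeR FDR 0.0108), and was not called without EV replicate 2 (0.0682), KO replicate 2 (0.0648) or KO replicate 3 (0.0535). RUNX2, a Runt factor, fell in MV4-11 OE, at 184, 175 and 180 against 208, 219 and 224 CPM (−0.27, SE 0.0489, edgeR FDR 0.0226). Its call held without both libraries with high interferon genes (−0.26, edgeR FDR 0.00598), and it was lost when only the MV4-11 groups were fitted (edgeR FDR 0.366) or when a single library was left out, namely OE replicate 2 (0.134), OE replicate 3 (0.0708), EV replicate 2 (0.0813) or EV replicate 3 (0.0585).

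Last, the protein-coding genes whose log2 CPM followed each of 4 members most closely were listed, among 11745 genes tested in both series. The measure was the smaller of the Pearson correlations over the 12 and the 18 libraries, and since libraries of a line share their level, it mostly ranks genes by their order between lines. MEIS1 was followed most closely by MTAP (0.975 and 0.986), TRIO (0.972 and 0.988) and ELOVL6 (0.968 and 0.966). MEF2C was followed by TRUB1 (0.983 and 0.978), ANKRD13A (0.979 and 0.976) and CISD1 (0.99 and 0.975). The closest genes were ADSS2 for HOXA9 (0.902 and 0.878) and PCCA for PBX3 (0.913 and 0.844), lower than for MEIS1 and MEF2C. No other member was among the 3 closest genes of these 4.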

How the data were processed

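Each table holds raw read counts per gene, deposited by the authors. Per the labels and the methods of the study, total RNA was depleted of ribosomal RNA, sequenced on an Illumina stranded kit, trimmed, aligned to GRCh38 by two-pass STAR and counted with featureCounts. The submitters' processing notes name cutadapt 1.16, STAR 2.7.6a, featureCounts 1.6.3 and DESeq2 1.30.1. The study's methods name Ensembl release 102. The knockout table lists 58051 genes against 60675 in the over-expression table, so which release the knockout table used is uncertain. The use of strand in counting is not given in the sources used here. Groups were taken from the labels, and 0 columns had no sample.

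Each series was fitted on all its libraries with edgeR 4.0.16 in R 4.3.3 (filterByExpr, TMM scaling, robust quasi-likelihood test), and p-values were adjusted by Benjamini-Hochberg over the 17542 or 14490 genes tested, with calls at an FDR of 5%. The edgeR adjusted p is written FDR. Adjusted p-values of alternatives came from edgeR or DESeq2 1.42.0. CPM was computed over TMM-scaled sums of the tested genes, and CPM per kilobase over the exon length in GENCODE release 44, which matched 60419 and 56948 gene IDs. The 2 tables were annotated differently, so no level was compared between them. Limits for a count of 0 used 3 counts over the group, and intervals are at 95%. All 30 pairs of replicates differed by more than counting noise (chi-square per degree of freedom 1.51 to 16.5). The fit was tested on simulated data.

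The 10 genes and the other lists were chosen with earlier results of these data known. All 10 genes were named in every comparison. Other genes were named where called in a treatment comparison, and as like genes the 3 with the highest smaller correlation over both series. Proteins were not shown, since no protein table was used here. The alternatives were DESeq2, RLE size factors, library sizes alone, no filter beyond 1 count, only the groups compared, a replicate block, and leaving out each library. Leaving out both libraries with high interferon genes, and following 6 other genes through the alternatives, were chosen after seeing the data.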

Additional observations from a re-analysis of the deposited data

How the results depend on the processing

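The number of the 10 genes called in a treatment comparison was 0 under every alternative run, except 1 in MV4-11 OE with no filter beyond 1 count (HOXA11) and 1 in Molm-14 OE with only the groups compared (PBX3). The number of all genes called moved more. In MV4-11 OE it was 65 with DESeq2, 123 with no filter beyond 1 count, 9 with only the groups compared and 12 to 76 when libraries were left out. In Molm-14 OE it was 5 with DESeq2, 2 with library sizes alone, 7 with no filter and 195 with only the groups compared. In MV4-11 KO it was 356 with only the groups compared and 133 to 1400 when a library was left out, and in Molm-14 KO 183 to 293. In THP-1 KO it was 26 with DESeq2, 30 with no filter, 4 with only the groups compared and 3 to 10 when a library was left out. The causes were not tested.

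Replicate numbers did not pair the samples outside THP-1, where correlations of deviations between same-numbered libraries were −0.315 to 0.073. In THP-1 they were 0.133, 0.079 and 0.25, and replicates 1 and 3 were above the threshold of 0.1, so pairing is uncertain in that line. With a replicate block, 15 genes were called in MV4-11 OE, 2 in Molm-14 OE and 1474 in MV4-11 KO, and 0 of the 10 genes in each treatment comparison. Under the block MEIS2 in Molm-14 KO (edgeR FDR 0.0525) and RUNX2 in MV4-11 OE (edgeR FDR 0.328) were not called.

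Signs turned for values near 0. With library sizes alone HOXA9, HOXA11 and MEF2C were −0.01 in Molm-14 OE, PBX3 was −0.03 between the lines in the over-expression series and PBX3 was −0.0003 in MV4-11 KO (−0.01 with only the groups compared). HOXA5 in THP-1 KO was −0.001 with DESeq2, −0.005 with RLE size factors, −0.02 with library sizes alone, −0.01 with no filter and −0.01 with only the groups compared. When libraries were left out, MV4-11 OE gave −0.83 to 2.33 for HOXA3, −0.04 to 0.06 for HOXA9, −0.02 to 0.08 for PBX3 and −0.23 to 0.004 for MEF2C. Molm-14 OE gave −0.09 to 0.01 for HOXA3, −0.03 to 0.12 for HOXA7, −0.04 to 0.05 for HOXA9 and −0.04 to 0.10 for HOXA11. PBX3 between the lines ran from −0.04 to 0.06 in the over-expression series. MV4-11 KO gave −0.99 to 0.001 for HOXA11 and −0.05 to 0.06 for PBX3. Molm-14 KO gave −0.55 to 0.07 for HOXA3, −0.10 to 0.02 for HOXA5, −0.15 to 0.01 for HOXA6, −0.01 to 0.18 for HOXA7 and −0.05 to 0.12 for HOXA11. THP-1 KO gave −0.07 to 0.14 for HOXA5, −0.12 to 0.04 for HOXA9, −0.04 to 0.06 for HOXA10 and −0.09 to 0.01 for PBX3. HOXA3 between THP-1 and MV4-11 EV rested on 4 counts against 0, so no call is given for it under any alternative. In the knockout series, treatment values of members under 1 CPM rested on at most 15 counts a group, so only large changes of these genes could have been seen at this depth.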
